A study of Mus musculus with 9 samples.

Results

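This account covers 34 genes of microglia and of the complement system in RNA from hippocampal synaptoneurosomes, chosen by name from a list of microglial and complement symbols. All 34 were found among the 22255 genes of the deposited table, and all 34 passed the filter on low counts that left 14512 genes for testing. Synaptoneurosomes are a fraction of brain homogenate enriched in pinched-off presynaptic terminals with attached postsynaptic membrane, and fragments of glia are carried along with them. The 9 samples came from mice of the C57Bl/6J strain, all with the Fmr1 KO genotype, a model of fragile X syndrome. Of these, 4 samples (replicates A, B, C and E) were labelled AM6545, a blocker of the cannabinoid receptor CB1 that enters the brain poorly, and 5 (replicates A to E) were labelled Vehicle. Treatment was sub-chronic in both groups. Dose, age and sex are not given in the sources used here, and no wild-type sample was analysed here, so every value below is from knockout tissue. Whether each sample is 1 animal is not stated. The p-values set a difference between groups against the spread between these samples.

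Microglia are the resident macrophages of the brain. They survey synapses through receptors for neuronal chemokine and nucleotide signals, and they engulf synaptic material that has been tagged by complement. In the classical pathway the C1q complex binds a target and starts a cascade that deposits fragments of C3, which microglia recognise through an integrin receptor made of the Itgam and Itgb2 proteins. This pathway is known for the removal of synapses during development and in disease models, and the hippocampus is one of the tissues where it has been studied. The comparison of AM6545 with Vehicle asks, for these genes, whether microglial and complement transcripts that travel with synapses differ between the groups.

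Total counts ran from 17628922 to 27263393 per sample, and mitochondrially encoded genes held 4.06% to 7.90% of them. Fmr1, the targeted gene, was read in every sample, at 9.45 to 11.1 CPM (counts scaled by library size) in AM6545 samples and 10.3 to 13.3 CPM in Vehicle samples, with a log2 fold change of -0.22 (SE 0.11, adjusted p = 0.653 in edgeR). Neuronal markers were abundant, with Snap25 at 3689 ± 212 CPM with AM6545 (SD, n = 4) and 3973 ± 791 CPM with Vehicle (SD, n = 5). Of 14 markers of T cells, B cells, neutrophils and monocytes, 0 passed the count filter, and none had more than 12 counts in a sample. The 10 markers of border macrophages, which share many microglial genes, summed to 13.3 to 30.7 CPM in AM6545 samples and 15.9 to 30.4 CPM in Vehicle samples. The 34 genes summed to 2207 to 2751 CPM and 1614 to 2817 CPM in the same groups. The lists differ in size, and a large part of the second sum was Ctsd, which is not particular to microglia. It was at 867 ± 75.6 CPM with AM6545 (SD, n = 4) and 893 ± 215 CPM with Vehicle (SD, n = 5).

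To compare genes with each other, counts were divided by transcript length and scaled so that each sample has the same total (TPM, the usual length-scaled unit of transcript abundance). The order of levels over the 9 samples was led by Ctsd, the lysosomal aspartic protease cathepsin D that most brain cells also make, at 939 ± 142 TPM (SD, n = 9). The cysteine protease cathepsin S, Ctss, which in brain is typical of microglia, followed at 348 ± 55.4 TPM (SD, n = 9). The C1q chains came next, with C1qb at 205 ± 34.2, C1qc at 163 ± 28.4 and C1qa at 127 ± 22.5 TPM (SD, n = 9). P2ry12 was at 105 ± 13.9 TPM (SD, n = 9). From C1qb downwards, each of these neighbours differed from the next by little more than the spread over samples, while Ctsd and Ctss stood clear of the rest. The C1q chains kept this order within each of the 9 samples. The ratio of C1qc to C1qb was 0.751 to 0.837 and that of C1qa to C1qb 0.562 to 0.689. At the low end were the phosphatase gene Ptprc at 1.94 ± 0.240, the receptor gene C3ar1 at 1.58 ± 0.241 and C3 itself at 0.181 ± 0.0783 TPM (SD, n = 9). The C1q chains, which start the cascade, were thus abundant in this fraction, and C3, its central component, was close to the limit of detection, with 5 to 18 counts per sample.

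**Figure D1:**
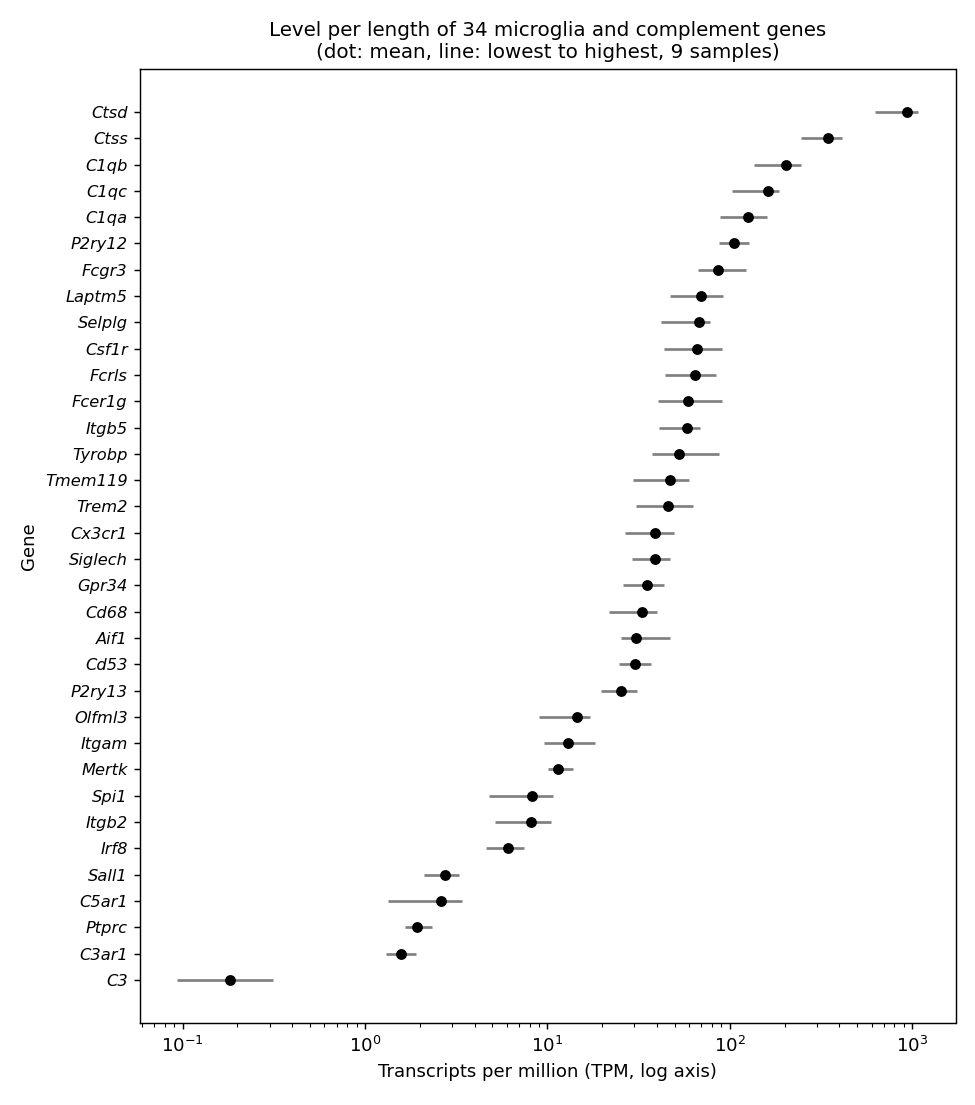
Level per length of the 34 genes on a log axis in TPM, with dots for the mean and lines from the lowest to the highest of 9 samples. Ctsd (939 TPM), Ctss (348 TPM) and the C1q chains (127 to 205 TPM) lead, and C3 (0.181 TPM) is lowest.

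A single library stood apart for these genes before any comparison of groups. Vehicle C had the lowest of all 9 values for 26 of 34 genes, where it was lowest for 15.4% of all genes tested. The median gene of the 34 lay 0.51 log2 units under its own mean in Vehicle C, and 0.22 under it in Vehicle E. It lay 0.25 above in AM6545 E, 0.21 above in Vehicle A and 0.15 above in Vehicle B. Vehicle C was the lowest of the 5 Vehicle samples for 29 genes (23.4% of all genes tested), and AM6545 E the highest of the 4 AM6545 samples for 28 genes (35.9%). AM6545 E held the highest value of the 9 for 15 genes and Vehicle A for 10 genes, against 14.0% and 17.9% of all genes tested. Over all genes tested the median deviation in Vehicle C was 0.0090, and it ran from -0.0089 to 0.016 over the 9 samples. The scaling of the counts holds this value near 0 in every sample, so it is no contrast to the 34 genes. By role, the deviation in Vehicle C was -0.55 for the complement genes, -0.54 for the homeostatic surface genes, -0.57 for the lysosomal and phagocytic genes and -0.31 for the Trem2 and Fc receptor group. In bulk RNA, fewer microglia or microglial fragments cannot be told apart from less RNA of these genes per cell.

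Other non-neuronal lists were low in Vehicle C too. The median deviation there was -0.34 for 28 other microglia-enriched genes (19 of 28 lowest in that library), -0.29 for 10 astrocyte markers (5 of 10), -0.41 for 10 oligodendrocyte markers (7 of 10) and -0.59 for 9 tested endothelial markers (6 of 9). The 10 choroid plexus markers were farthest off, at -2.99 in Vehicle C and -2.51 in AM6545 C, against 2.02 in Vehicle A and 2.13 in Vehicle D. Between the groups all 10 had log2 fold changes below 0, with a median of -1.37 and 0 past the threshold. The 10 neuronal markers were at 0.05 in Vehicle C. In AM6545 E the 28 other microglia-enriched genes were at 0.18, the astrocyte markers at 0.17 and the endothelial markers at -0.39. The part of tissue composition in the levels of the 34 genes was not tested. Values without Vehicle C are given below where they move a result.

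**Figure D2:**
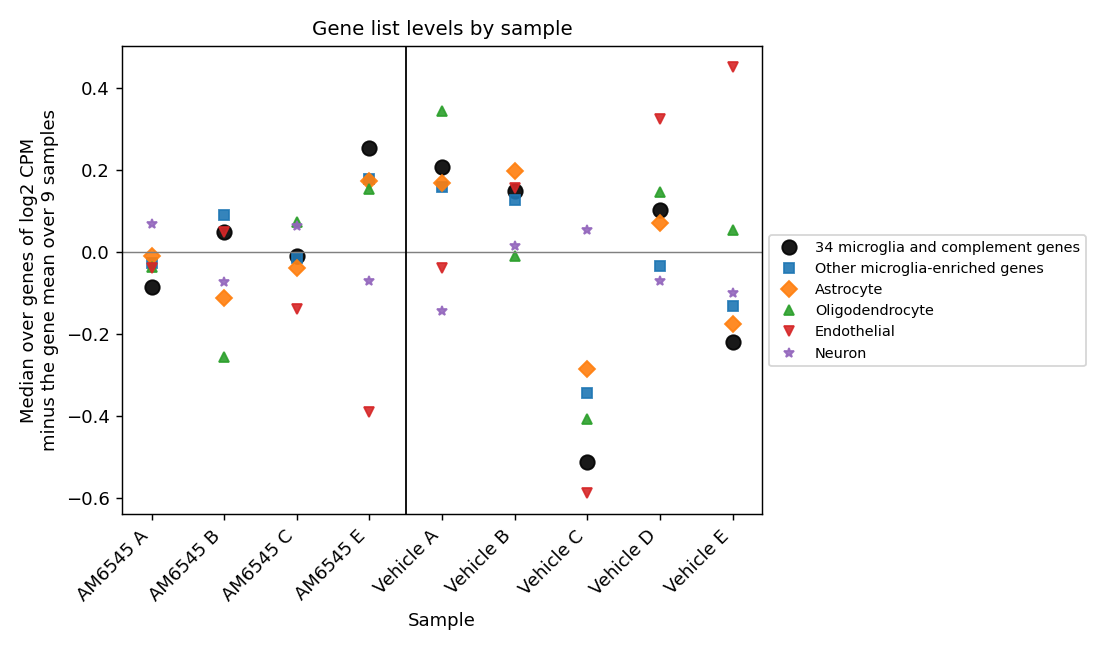
Median over the genes of each list of log2 CPM minus the gene's mean over 9 samples, by sample, for the 34 genes and for markers of other cell types. The 34 genes are at -0.51 in Vehicle C and 0.25 in AM6545 E, and the neuronal list stays between -0.14 and 0.07.

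The 34 genes also moved together from sample to sample. The median Pearson correlation over the 561 pairs of these genes was 0.67 across 9 samples (Spearman 0.58), and 96.4% of the pairs were above 0. Over all pairs of the 14512 genes tested the median was -0.0068. Without Vehicle C the median over the 34 genes was 0.51 (Spearman 0.45), and with the group means removed it was 0.73. These are descriptions, since all genes of a sample share its library, depth and tissue makeup. Spread differed among the genes: the median SD of log2 CPM over 9 samples was 0.29 for the 34 genes and 0.21 for all genes tested. It was widest for C3, at 0.55, and narrowest for Mertk, at 0.17.

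**Figure D3:**
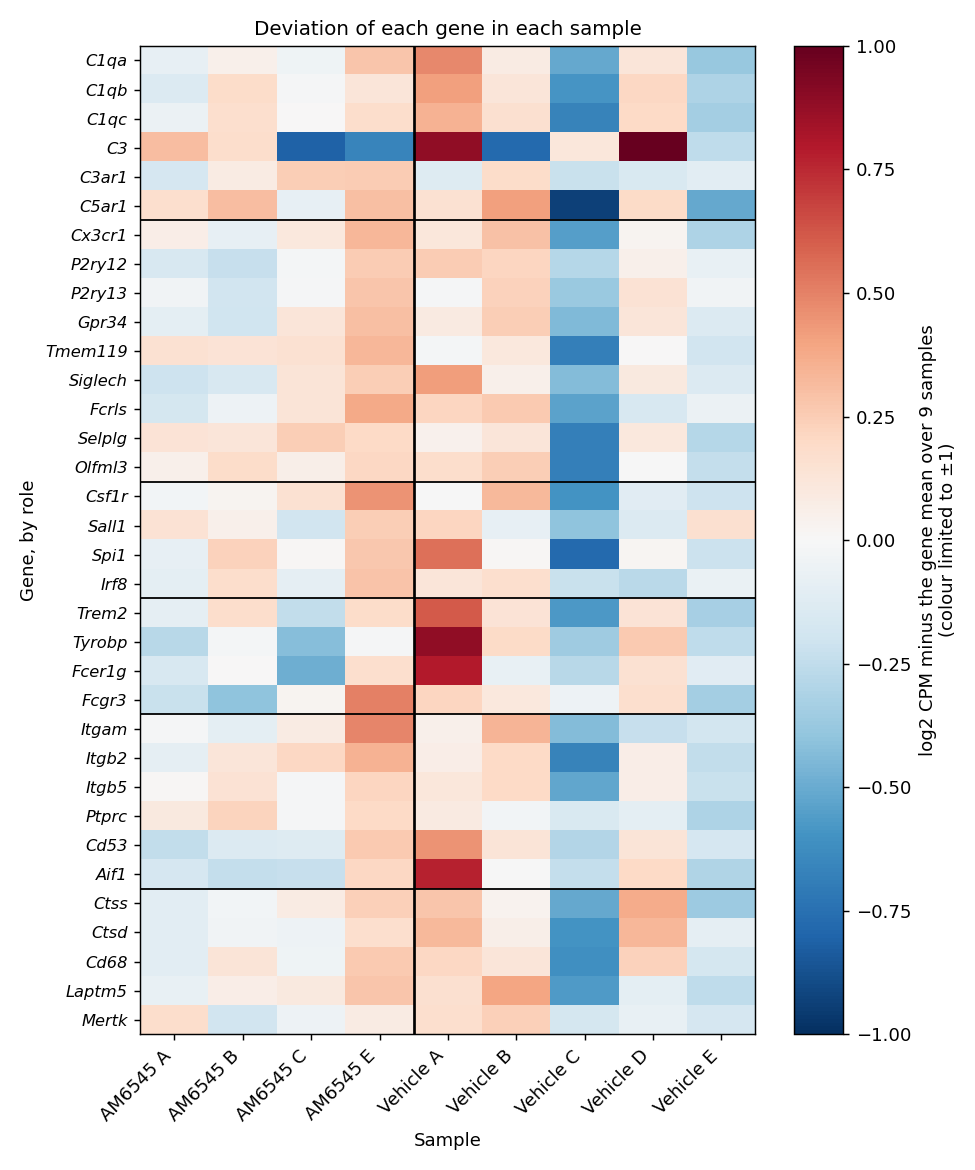
Heat map of log2 CPM minus the gene's mean over 9 samples, with genes in rows by role and samples in columns. The Vehicle C column is blue for nearly all genes, and the darkest red cells of Vehicle A are C3, Tyrobp, Fcer1g and Aif1.

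Microglial genes are known to depend on PU.1, the transcription factor that Spi1 encodes, which binds purine-rich sites. The promoters of the 34 genes were searched for GAGGAAG, a core of such sites, on both strands. Promoters were RefSeq windows of GRCm38.p6 from 250 bases before to 50 bases after a transcript start. Of the 34 genes 26 had such a window, and 9 of these 26 (34.6%) held the letters, as did 15.4% of 27025 genes with a window. These were Fcgr3, P2ry13, Fcrls, Ctss, Cd53, Laptm5, C1qc, Itgam and Trem2. A match is a description of the sequence and not a measured binding site. Any link between these letters and the movement of the genes over samples was not tested. The windows of a complement chain, a lysosomal protease, a complement receptor chain and a lipid receptor are shown 5′ to 3′ along the gene, with the match on either strand in capitals:
C1qc (chr4:136892865-136893164, minus strand): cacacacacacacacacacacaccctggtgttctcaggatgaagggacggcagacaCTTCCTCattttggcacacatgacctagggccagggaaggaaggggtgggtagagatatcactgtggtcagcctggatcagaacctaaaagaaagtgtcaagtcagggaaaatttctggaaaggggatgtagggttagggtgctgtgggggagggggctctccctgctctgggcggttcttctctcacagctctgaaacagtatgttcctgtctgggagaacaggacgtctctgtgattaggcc
Ctss (chr3:95526536-95526835, plus strand): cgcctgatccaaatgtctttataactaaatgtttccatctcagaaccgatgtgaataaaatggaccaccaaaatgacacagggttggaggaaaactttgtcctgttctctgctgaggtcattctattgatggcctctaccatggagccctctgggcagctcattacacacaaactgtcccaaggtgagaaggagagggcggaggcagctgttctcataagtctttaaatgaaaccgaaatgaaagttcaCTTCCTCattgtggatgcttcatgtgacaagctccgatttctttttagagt
Itgam (chr7:128062390-128062689, plus strand): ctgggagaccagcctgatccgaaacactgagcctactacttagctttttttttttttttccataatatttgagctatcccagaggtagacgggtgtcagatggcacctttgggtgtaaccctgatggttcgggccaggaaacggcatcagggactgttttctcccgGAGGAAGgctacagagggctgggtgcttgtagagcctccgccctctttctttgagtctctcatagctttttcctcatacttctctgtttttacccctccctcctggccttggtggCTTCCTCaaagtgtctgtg
Trem2 (chr17:48346151-48346450, plus strand): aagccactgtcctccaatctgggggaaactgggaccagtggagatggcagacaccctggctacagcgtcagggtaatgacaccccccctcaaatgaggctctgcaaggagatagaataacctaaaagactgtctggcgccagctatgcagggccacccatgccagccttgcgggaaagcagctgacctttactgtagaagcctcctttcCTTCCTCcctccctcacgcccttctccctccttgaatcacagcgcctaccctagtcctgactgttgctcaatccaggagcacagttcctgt
The match starts 194 bases before the transcript start in C1qc, 1 base before it in Ctss and 41 bases before it in Trem2. Itgam has 1 match on each strand.

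Between AM6545 and Vehicle, 0 of the 34 genes passed an adjusted p of 0.05 by edgeR's quasi-likelihood test, with 0% of all 14512 genes called. DESeq2 and limma-voom with sample weights also called 0 of the 34. The smallest adjusted p among the 34 was 0.653 and the largest 0.9997. At an unadjusted p under 0.05 there was 1 gene of the 34, Tmem119, against 7.21% of all genes. It was higher in AM6545, against 3.03% of all genes in that direction, and 0 lower, against 4.18%. Log2 fold changes ran from -0.49 for C3 to 0.33 for Tmem119, with 23 of 34 above 0, where 48.2% of all genes were. Their median was 0.09, against -0.0090 over all genes tested. Without Vehicle C the median was -0.03 and 16 of 34 were above 0, so this balance did not hold without that library. Leaving out Vehicle A gave a median of 0.17, and leaving out AM6545 E gave 0.01. Leaving out both Vehicle A and Vehicle C (chosen after seeing the data) gave 0.05, so the median depended on which samples were kept.

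The precision of the comparison sets what it could show. For 33 of the 34 genes the unadjusted 95% interval lay within a factor of 2 either way, C3 being the exception. For 25 of 34 it lay within a factor of 1.5. Changes smaller than these intervals were not detectable with 4 and 5 samples, and larger ones could also be missed. The intervals are unadjusted, while a call also had to pass the adjustment over all genes tested. For Tmem119 the unadjusted 95% interval of the log2 fold change, 0.04 to 0.61, lay wholly above no change. Its adjusted p was still 0.653 by edgeR's quasi-likelihood test.

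**Figure D4:**
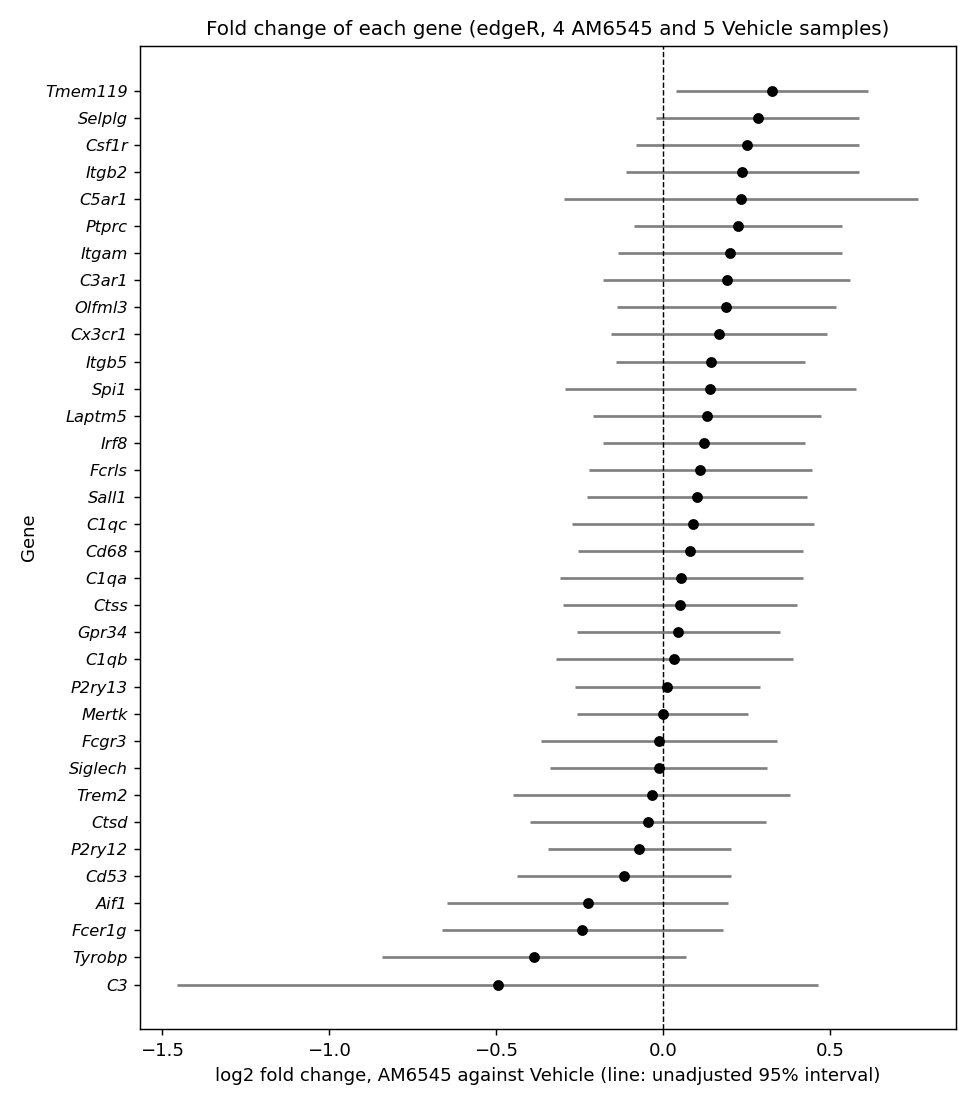
Log2 fold change of each of the 34 genes, AM6545 against Vehicle, as dots with unadjusted 95% intervals as lines. The interval of Tmem119 (0.04 to 0.61) leaves out 0, and those of the other 33 genes include it.

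The first role is the recognition complex of the classical pathway. C1qa, C1qb and C1qc encode the chains that assemble into C1q, and their genes are neighbours on mouse chromosome 4. C1qa (ENSMUSG00000036887.6) was at 54.0, 59.1, 55.5 and 69.1 CPM in AM6545 A, B, C and E, and at 79.7, 60.4, 39.9, 62.1 and 43.9 CPM in Vehicle A to E. C1qb (ENSMUSG00000036905.9) was at 88.1, 109.8, 96.0 and 105 CPM in the same AM6545 samples and at 128, 105, 64.3, 111 and 78.2 CPM in Vehicle A to E. C1qc (ENSMUSG00000036896.6) was at 81.5, 95.3, 84.9 and 95.9 CPM against 108, 94.8, 53.4, 97.4 and 67.1 CPM. For each chain Vehicle A was the highest and Vehicle C the lowest of the 9, and the AM6545 values fell inside the Vehicle range. The log2 fold changes were 0.06 (SE 0.17) for C1qa, 0.03 (SE 0.17) for C1qb and 0.09 (SE 0.17) for C1qc, with adjusted p of 0.940, 0.959 and 0.895 by edgeR's quasi-likelihood test. Without Vehicle C they were -0.05, -0.08 and -0.04. The chains kept their proportions: the ratio of C1qa to C1qb in TPM ran from 0.562 to 0.689 over the 9 samples, and that of C1qc to C1qb from 0.751 to 0.837, while the level of each chain varied by about 1 log2 unit.

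**Figure D5:**
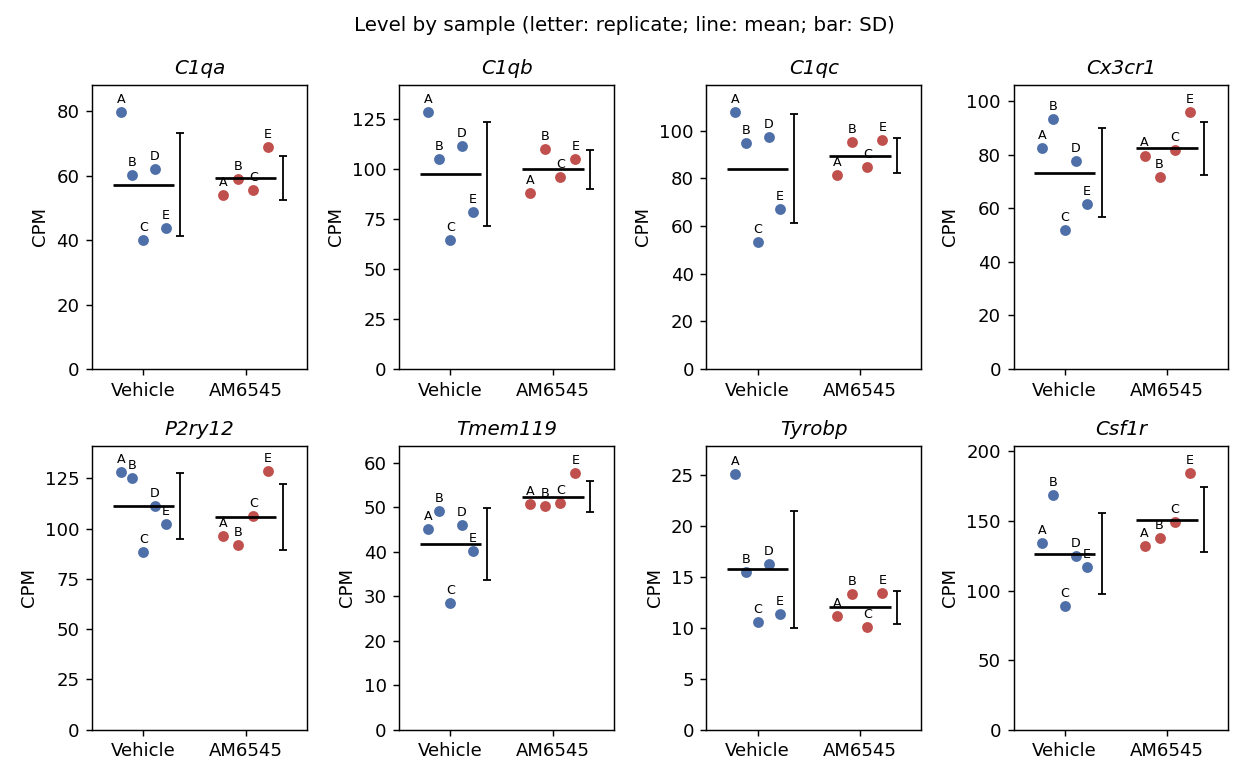
CPM of 8 genes in each sample, on axes that start at 0, with letters for replicates, lines for group means and bars for the SD (n = 5 Vehicle, n = 4 AM6545). Vehicle C is the lowest Vehicle sample in all 8 panels, and only in the Tmem119 panel do the groups not overlap.

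C3 and the receptors for its fragments and those of the next component were scarce. C3 (ENSMUSG00000024164.16), the protein that the whole cascade converges on, had 9, 10, 5 and 6 counts in AM6545 A, B, C and E and 12, 6, 8, 18 and 8 counts in Vehicle A to E. These correspond to 0.335 ± 0.127 CPM (SD, n = 4) and 0.479 ± 0.237 CPM (SD, n = 5). The log2 fold change was -0.49 (SE 0.45, adjusted p = 0.751 in edgeR). At this depth a difference in C3 was not detectable. C3ar1, the receptor for the C3a fragment, was between 2.54 and 3.54 CPM in all samples, with a log2 fold change of 0.19 (SE 0.17). C5ar1, the receptor for C5a, was lowest in Vehicle C, at 1.47 CPM, and highest in Vehicle B, at 3.73 CPM, with a log2 fold change of 0.23 (SE 0.25).

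The homeostatic surface genes are typical of resting microglia, and some of them, such as Tmem119, are used to tell microglia from other macrophages. P2ry12 (ENSMUSG00000036353.14), a receptor for ADP that guides microglial processes, was at 96.6, 91.7, 106 and 129 CPM in AM6545 A, B, C and E. In Vehicle A to E it was at 128, 125, 88.6, 111 and 102 CPM, so the groups covered the same range, and the log2 fold change was -0.07 (SE 0.13). An exon of Med12l lies over P2ry12 on the other strand in GENCODE M21, and the strand setting of the counting is not given in the sources used here. Cx3cr1 (ENSMUSG00000052336.8), the receptor for the neuronal chemokine fractalkine, was at 79.6, 71.8, 81.7 and 95.9 CPM in AM6545 samples and at 82.3, 93.2, 51.9, 77.6 and 61.4 CPM in Vehicle A to E. Its log2 fold change was 0.17 (SE 0.15, adjusted p = 0.751 in edgeR), and 0.07 without Vehicle C.

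Tmem119 (ENSMUSG00000054675.6), a membrane protein used as a marker of resident microglia, came nearest to a difference. It was at 50.7, 50.3, 50.9 and 57.6 CPM in AM6545 A, B, C and E and at 45.2, 49.2, 28.5, 45.9 and 40.1 CPM in Vehicle A to E. Every AM6545 value lay above every Vehicle value, the single gene of the 34 with ranges that did not overlap, against 0.579% of all genes tested in that direction. In the other direction there was 0 of 34, against 0.868%. The gap between AM6545 B and Vehicle B was small beside the spread of the Vehicle samples. The log2 fold change was 0.33 (SE 0.13, unadjusted 95% interval 0.04 to 0.61), with an adjusted p of 0.653 by edgeR's quasi-likelihood test, so it did not pass. Over the alternatives its adjusted p ran upwards from 0.325, and its log2 fold change without Vehicle C was 0.22.

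Selplg (ENSMUSG00000048163.14), which encodes a ligand of selectins on white blood cells and microglia, had the second smallest p among genes with higher values in AM6545. It was at 60.1, 59.2, 64.6 and 62.5 CPM in AM6545 samples and at 56.3, 59.3, 33.9, 58.8 and 44.7 CPM in Vehicle A to E. Here Vehicle A, B and D lay close to the AM6545 samples, and Vehicle C and E lay well under them. The log2 fold change was 0.28 (SE 0.14, adjusted p = 0.653 in edgeR), and it was 0.17 without Vehicle C. The rest of the homeostatic genes lay nearer to 0. They were the nucleotide receptor P2ry13 (0.01), the lysophosphatidylserine receptor Gpr34 (0.05), the lectin Siglech (-0.01), the Fc receptor-like gene Fcrls (0.11) and the secreted protein Olfml3 (0.19), with standard errors of 0.13 to 0.16 on these log2 fold changes. All 9 genes of this role were lowest in Vehicle C.

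Csf1r, which encodes the growth factor receptor that microglia need to survive, and the transcription factors of microglial identity form the next role. Csf1r (ENSMUSG00000024621.17) was at 132, 138, 149.6 and 184 CPM in AM6545 A, B, C and E and at 134, 169, 89.1, 124 and 117 CPM in Vehicle A to E. AM6545 E was the highest of the 9 and Vehicle C the lowest, with the other samples overlapping. The log2 fold change was 0.25 (SE 0.16, adjusted p = 0.668 in edgeR), 0.15 without Vehicle C and 0.38 without Vehicle B. Hmgxb3 overlaps Csf1r on the other strand in GENCODE M21, which leaves part of its count uncertain. Spi1, which encodes PU.1, was lowest in Vehicle C, at 4.21 CPM, and highest in Vehicle A, at 10.6 CPM. Irf8, a partner of PU.1, lay between 6.21 and 9.14 CPM. Sall1, a repressor that keeps microglia in the resident state, lay between 4.77 and 7.47 CPM. The log2 fold changes of these factors were 0.14 (SE 0.20), 0.12 (SE 0.14) and 0.10 (SE 0.15), each within the spread between replicates.

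Trem2 and Fc receptors signal through the adaptors Tyrobp and Fcer1g, whose tails hold a motif that recruits the kinase Syk. Trem2 (ENSMUSG00000023992.15), a receptor for lipids and apolipoproteins, was at 20.2, 24.2, 18.1 and 24.4 CPM in AM6545 A, B, C and E and at 32.8, 23.6, 14.4, 23.6 and 17.0 CPM in Vehicle A to E. Tyrobp (ENSMUSG00000030579.11), its adaptor DAP12, was at 11.2, 13.3, 10.04 and 13.4 CPM in AM6545 samples and at 25.0, 15.4, 10.6, 16.2 and 11.3 CPM in Vehicle A to E. Fcer1g (ENSMUSG00000058715.12), the adaptor of Fc receptors, was at 15.4, 17.3, 12.3 and 19.3 CPM in AM6545 samples and at 29.8, 16.4, 14.2, 19.2 and 15.9 CPM in Vehicle A to E. All had their highest value in Vehicle A, and the groups overlapped for each. Their log2 fold changes were -0.03 (SE 0.19) for Trem2, -0.39 (SE 0.21) for Tyrobp and -0.24 (SE 0.20) for Fcer1g, with adjusted p of 0.967, 0.653 and 0.724 by edgeR's quasi-likelihood test. Without Vehicle A those of Tyrobp and Fcer1g were -0.16 and -0.03. Without Vehicle C that of Tyrobp was -0.50 (adjusted p = 0.682 in edgeR). The Fc receptor Fcgr3 was between 38.3 and 71.4 CPM with a log2 fold change of -0.01 (SE 0.16), and it shares a near-identical stretch with Fcgr2b, so reads may be divided between these genes.

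The ratio of Tyrobp to Trem2 separated the groups, although neither gene did. In TPM it was 1.007, 1.0004, 1.013 and 1.002 in AM6545 A, B, C and E, and 1.39, 1.19, 1.33, 1.25 and 1.21 in Vehicle A to E. The means were 1.01 ± 0.0057 (SD, n = 4) and 1.28 ± 0.0845 (SD, n = 5). The AM6545 ratios lay closer together than the Vehicle ratios, and the 2 ranges did not overlap. In AM6545 samples the ratio rests on 216 to 337 counts of Tyrobp and 391 to 613 counts of Trem2. Counting noise at such numbers is wider than the spread of the AM6545 ratios, so their closeness is not read as a trait of the group. It was 1 of 10 ratios computed, all picked after the values of single genes had been seen, so no test of it is given. How often the ratio of any 2 tested genes separates the groups was not computed, so this separation has no background share beside it. Tyrobp has the shortest transcript of the 34 genes, at 597 bases against 1088 bases for Trem2. With each sample's trend in transcript length removed, the log2 fold change was -0.07 for Tyrobp and 0.13 for Trem2.

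Transcript length moved with the values across the 34 genes. The 11 shortest (597 to 1742 bases) were higher in Vehicle A than in the other Vehicle samples by a median of 0.55 log2 units. For 8 of them Vehicle A was the highest of the 9 samples, as it was for 17.9% of all genes tested. For the 11 longest (2970 to 5465 bases) the median was 0.23, with 0 highest there. The median log2 fold change was -0.01 for the shortest and 0.19 for the longest. Across the 34 genes, which are not independent replicates, the Spearman correlation of length with log2 fold change was 0.49. Across 14494 genes tested it was 0.25. The correlation of length with the difference of Vehicle A from the other Vehicle samples was -0.57 and -0.13 in the same sets of genes. Vehicle A had the lowest total count and the highest mitochondrial share. The part of length in the values was not tested beyond the removal of the trend, which left 0 of the 34 genes past the threshold and a median log2 fold change of 0.14.

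Integrins and surface proteins shared with other white blood cells followed the same sample pattern. Itgam (ENSMUSG00000030786.19), the alpha chain of complement receptor CR3, was at 26.1, 24.6, 27.9 and 36.9 CPM in AM6545 A, B, C and E and at 27.2, 33.2, 19.5, 22.4 and 23.2 CPM in Vehicle A to E. AM6545 E and Vehicle B were the high samples. The log2 fold change was 0.20 (SE 0.16, adjusted p = 0.717 in edgeR), and 0.06 without AM6545 E. The gene model Gm49368 overlaps Itgam on the same strand in GENCODE M21, so its count may be split. Itgb2, the beta chain of the same receptor, was lowest in Vehicle C, at 6.60 CPM, and highest in AM6545 E, at 13.3 CPM, with a log2 fold change of 0.24 (SE 0.16). The ratio of Itgam to Itgb2 in TPM was between 1.301 and 1.87 in the 9 samples. Aif1 (ENSMUSG00000024397.15), which encodes the calcium-binding protein IBA1 used to stain microglia, was at 10.3, 9.87, 9.91 and 13.4 CPM in AM6545 samples and at 19.8, 11.6, 9.85, 13.3 and 9.40 CPM in Vehicle A to E. Vehicle A stood above the other 8 samples, and the log2 fold change was -0.22 (SE 0.20), or -0.02 without Vehicle A. Cd53, a tetraspanin, was at -0.12 (SE 0.15), the integrin Itgb5 at 0.14 (SE 0.13) and Ptprc, which encodes the phosphatase CD45, at 0.23 (SE 0.15) on the log2 fold change scale.

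Of the genes of the lysosome and of engulfment, Ctsd and Ctss were the most abundant of the 34. Cd68 and Mertk were lower, at 33.2 ± 5.30 and 11.5 ± 1.34 TPM (SD, n = 9). Ctss (ENSMUSG00000038642.11) was at 191, 201, 217 and 241 CPM in AM6545 A, B, C and E and at 248, 209, 144, 264 and 159 CPM in Vehicle A to E. Ctsd (ENSMUSG00000007891.17) was at 806, 845, 839 and 977 CPM in AM6545 samples and at 1086, 903, 574, 1091 and 813 CPM in Vehicle A to E. For both, Vehicle A and D were the highest samples and Vehicle C the lowest, and all AM6545 samples lay between. The log2 fold changes were 0.05 (SE 0.16) and -0.04 (SE 0.16). The gene model Gm49369 overlaps Ctsd in GENCODE M21. Mertk (ENSMUSG00000014361.6), a receptor for phosphatidylserine on dying material that astrocytes also use, was at 24.4, 18.9, 20.9 and 22.8 CPM in AM6545 samples and at 24.3, 25.6, 19.2, 20.5 and 19.3 CPM in Vehicle A to E. It had the narrowest spread of the 34 genes, and its group means were 21.8 ± 2.39 (SD, n = 4) and 21.8 ± 2.97 CPM (SD, n = 5). The unadjusted 95% interval of its log2 fold change was -0.26 to 0.26. Cd68, a lysosomal membrane protein, was at 0.08 (SE 0.16), and Laptm5, a lysosomal transmembrane protein of blood cells, at 0.13 (SE 0.16) on the same scale.

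Other genes of these pathways were read from lists of pathway genes. Of 17 further complement components, 7 were tested, 5 with values above 0 and 2 below, and 0 passed the threshold or an unadjusted p of 0.05 by edgeR's quasi-likelihood test. Their median log2 fold change was 0.08, but -0.05 without Vehicle C and 0.26 without AM6545 A. The most abundant was C4b, which follows C1q in the cascade, at 13.8 ± 2.29 CPM with AM6545 (SD, n = 4) and 13.1 ± 6.27 CPM with Vehicle (SD, n = 5). Of the components that were not tested, Hc, the gene of C5, had at most 18 counts in a sample and Cfb, a component of the alternative pathway, at most 12. Of 17 complement regulators, 16 were tested and 0 passed. At an unadjusted p under 0.05 there were 2 above 0 and 1 below, where 3.03% and 4.18% of all genes tested were. The median log2 fold change of the regulators was 0.03, but -0.01 without Vehicle C, -0.14 without AM6545 E and 0.16 without Vehicle A. Sez6 and Sez6l, neuronal membrane proteins of a family with complement control domains, had log2 fold changes of 0.34 (SE 0.12) and 0.30 (SE 0.14), with 289 ± 32.4 against 228 ± 33.9 CPM for Sez6 and 70.9 ± 12.8 against 57.6 ± 9.85 CPM for Sez6l (SD, n = 4 and n = 5). Cd59a, which blocks the membrane attack complex, was at 9.21 ± 2.78 CPM with AM6545 (SD, n = 4) and 19.8 ± 12.003 CPM with Vehicle (SD, n = 5), which is a log2 difference of -1.10 (SE 0.39). Each of these had an adjusted p of 0.653 by edgeR's quasi-likelihood test. The 10 choroid plexus markers summed to 461 to 3543 CPM in AM6545 samples and 318 to 10885 CPM in Vehicle samples, and their part in the level of Cd59a was not tested.

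Of 13 ligands and partners of the microglial receptors, all were tested, 8 above 0 and 5 below, and 0 passed the threshold or an unadjusted p of 0.05 by edgeR's quasi-likelihood test. Their median log2 fold change was 0.02, but -0.05 without AM6545 E and 0.10 without AM6545 B. Cx3cl1, the neuronal ligand of Cx3cr1, was far more abundant than its receptor. It was at 824 ± 64.9 CPM with AM6545 (SD, n = 4) and 708 ± 98.1 CPM with Vehicle (SD, n = 5), which is a log2 difference of 0.22 (SE 0.12). The ratio of Cx3cr1 to Cx3cl1 in TPM was 0.0735 ± 0.0032 (SD, n = 4) and 0.0763 ± 0.0138 (SD, n = 5). For the growth factor axis, the ratio of Csf1r to its ligand Il34 was between 1.002 and 1.63 in the 9 samples, and that of Csf1r to Csf1 between 7.71 and 14.2. The 28 other microglia-enriched genes, none of them among the 34, had 20 values above 0 and 8 below, a median log2 fold change of 0.05, and 0 past the threshold or an unadjusted p of 0.05. That median was -0.01 without Vehicle C and 0.14 without Vehicle A, so its sign did not hold without Vehicle C. With the mean level of these 28 genes as a covariate, the median log2 fold change of the 34 genes was 0.02 and 0 passed the threshold. Under that covariate 4 of the 34 had an unadjusted p under 0.05, where 9.08% of all genes did, with log2 fold changes of 0.27 for Tmem119, 0.23 for Selplg, -0.46 for Tyrobp and -0.32 for Fcer1g, each with an adjusted p of 0.535 by edgeR's quasi-likelihood test.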

How the data were processed

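RNA from hippocampal synaptoneurosomes was sequenced in 9 samples. The deposited values are estimated counts per gene, partly fractional and not scaled between samples, as the values show. The submitters' processing notes list Salmon 1.3, DESeq2 1.30 and the builds GRCm39 and mm10 without saying what each was used for, so no coordinates are given for the counted genes, and the promoter windows have those of RefSeq on GRCm38.p6. Strand and multi-mapping settings are not given in the sources used here. A SMARTer kit for low input was used, per the labels' protocols.

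Symbols were matched by Ensembl identifier without version (22155 of 22255 rows). Counts were rounded to whole numbers, filtered with filterByExpr, scaled with TMM and tested in edgeR 4.0.16 under R 4.3.3 (quasi-likelihood). P-values were adjusted by Benjamini-Hochberg over all 14512 genes tested, with a threshold of 0.05. No covariate was used. SEs are the absolute log2 fold change over the square root of F. CPM values use TMM factors, log2 CPM a prior count of 2, and TPM, computed here, the longest protein-coding transcript of GENCODE M21. Similar transcripts were sought with blastn 2.17.0. The test was tried on simulated data.

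The 34 genes and all lists were chosen with earlier results of these data known. The naming rule listed 14 of the genes, the 3 smallest p in each direction, the highest and lowest level and the widest spread for values in every sample, and for other lists the most abundant gene and those with an unadjusted p under 0.05. C3 cannot be told from 0 change at 5 to 18 counts. Hc and Cfb were named after their values were seen. A gene that this rule would name is not reported here. Each of the 36 pairs of samples differed by more than counting noise, with a chi-square of counts per degree of freedom of 10.5 to 94.9. Alternatives were RLE factors, total counts, no count filter, a mean of at least 1 CPM, DESeq2 1.42.0, limma-voom with sample weights (limma 3.58.1), the title letter as a block, the mean level of the 28 other microglia-enriched genes as a covariate, removal of the length trend (lowess, span 0.3) and each sample left out.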

Additional observations from a re-analysis of the deposited data

Results flagged for a closer look

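Dixon's test for a stray sample, at its 95% critical value, was applied in both groups to the 34 genes and Fmr1. It marked 3 of 70 sets of values, and chance marks about 1 in 20. Tmem119 was at 57.6 CPM in AM6545 E against 50.3 to 50.9 CPM in the rest of its group. Aif1 was at 13.4 CPM in AM6545 E against 9.87 to 10.3 CPM in the rest. C3ar1 was at 3.37 CPM in Vehicle B and at 2.54 to 2.75 CPM in the rest of that group.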

How the results depend on the processing

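The count of 0 genes past the threshold among the 34 held under every alternative run, and over all genes the count ran from 0 to 1 when single samples were left out, the 1 call coming without AM6545 A. The median log2 fold change of the 34 genes ran from -0.03 to 0.17 with each sample left out. For 19 of the 34 genes the direction of the log2 fold change was the same in every fit, and for 15 it was not, though no adjusted p among the 34 was under 0.325. The log2 fold changes that turned were as follows. Mertk, the gene nearest to 0, was at 0.0087 with RLE factors, 0.0027 without a count filter and 0.0085 with DESeq2. With limma-voom sample weights the values were Mertk 0.073, P2ry13 -0.044 and Trem2 0.035. With the replicate block the values were Ctsd 0.072, Siglech 0.025 and Trem2 0.047. With the microglial covariate the values were C1qa -0.012, C1qb -0.027, Ctss -0.0076, Gpr34 -0.0074 and P2ry13 -0.035. With the length trend removed the values were Aif1 0.0027, Fcer1g 0.043, Fcgr3 0.11, Siglech 0.015 and Trem2 0.13. With Vehicle A and Vehicle C both left out, chosen after seeing the data, the values were Fcgr3 0.025, Gpr34 -0.043, P2ry13 -0.097, Siglech 0.0069 and Trem2 0.022. Over the fits without a sample the ranges were C1qa -0.049 to 0.20, C1qb -0.083 to 0.15, C1qc -0.036 to 0.19, Cd68 -0.034 to 0.15, Ctsd -0.17 to 0.038, Ctss -0.052 to 0.16, Fcgr3 -0.22 to 0.11, Fcrls -0.00082 to 0.20, Gpr34 -0.050 to 0.12, Mertk -0.059 to 0.073, P2ry13 -0.084 to 0.080, Siglech -0.11 to 0.10 and Trem2 -0.15 to 0.14. The cause was not tested. At an unadjusted p under 0.05 the count among the 34 was 4 without Vehicle B (12.5% of all genes), 0 without AM6545 E (12.6% of all genes) and 1 or 2 without any other sample (3.43% to 7.07% of all genes). Whether same-letter samples of the groups share more than a letter is not stated in the labels and was not tested. The correlations of their deviations from group means were -0.02, 0.04, 0.34 and -0.02 for A, B, C and E. Between different letters they ran from -0.28 (AM6545 C with Vehicle A) to 0.35 (AM6545 E with Vehicle A). With the replicate block 0 of the 34 genes passed and 2 had an unadjusted p under 0.05 in edgeR (5.23% of all genes). With a mean of at least 1 CPM, C3 was not tested. Depth limits C3 most, at 5 to 18 counts, and C3ar1 had 47 to 92 counts per sample.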

Other observations

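Lists of activated and antigen-presenting states gave no call. Of 19 genes known to be higher in disease-associated microglia, 16 were tested, 6 above 0 and 10 below, with a median log2 fold change of -0.10 (-0.19 without Vehicle C) and 0 past the threshold by edgeR's quasi-likelihood test. B2m, the light chain of class I histocompatibility proteins, was the 1 gene of this list at an unadjusted p under 0.05 (7.21% of all genes tested), at 108 ± 10.53 CPM with AM6545 (SD, n = 4) and 138 ± 25.2 CPM with Vehicle (SD, n = 5), which is a log2 difference of -0.34 (SE 0.13, adjusted p = 0.653 in edgeR). Fth1, a ferritin chain, was the most abundant of the list, at 4902 ± 258 CPM (SD, n = 4) and 5357 ± 1395 CPM (SD, n = 5).

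Of 10 cytokine genes, 3 were tested and 7 fell under the count filter, among them Tnf with at most 4 counts, Il1b with at most 11 and Il6 with at most 5 counts in a sample. All 10 interferon-response genes were tested, 4 above 0 and 6 below, with a median log2 fold change of -0.01 (-0.12 without AM6545 E, 0.08 without Vehicle A) and 0 at an unadjusted p under 0.05. The class II histocompatibility list had 4 tested genes, all below 0, with a median of -0.23 that was 0.05 without AM6545 C and -0.54 without AM6545 E. Its summed level lay between 5.75 (AM6545 C) and 32.7 CPM (Vehicle A), with Vehicle C at 5.94 CPM, a wider spread over samples than that of the 34 microglial genes. Border macrophage markers, 10 of 10 tested, had 5 values above 0 and 5 below, with a median that ran from -0.30 without AM6545 E to 0.18 without Vehicle A.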
